A study of Homo sapiens with 6 samples.

Results

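Cyclins, cyclin-dependent kinases (CDKs), CDK inhibitors and the E2F and RB factors around them are described here in SNU449, a long-established line from a human liver carcinoma. The genes were taken by symbol: single-letter cyclin names, CDK followed by a number, the CDKN1, CDKN2 and CDKN3 inhibitors, E2F1 to E2F8, the DP partners TFDP1 and TFDP2, and a fixed set made of RB1, RBL1, RBL2, LIN9, LIN54, MYBL2, FOXM1, the CDC25 phosphatases, WEE1, PKMYT1 and SKP2. The matricellular CCN genes, whose symbols start alike, were left out. This took 85 of the 17153 genes in the files. Of these, 7 (CDK2AP1, CDK2AP2, CDK5R1, CDK5R2, CDK5RAP1, CDK5RAP2 and CDK5RAP3) encode proteins named after a CDK that are not kinases themselves. Transfection lasted 48 h, with siControl for 3 libraries and, for the other 3, with siOXTR, which targets the mRNA of the oxytocin receptor. The labels give neither the siRNA sequences nor whether siOXTR was 1 siRNA or a pool. They also do not say whether libraries of a group came from separate cultures, so each p-value reflects library-to-library spread that could be purely technical.

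Cyclins are the regulatory subunits that switch CDKs on. D-type cyclins with CDK4 or CDK6, and then E-type cyclins with CDK2, phosphorylate the RB proteins in G1, which releases E2F factors to transcribe genes of DNA synthesis. A-type and B-type cyclins act later, with CDK2 and CDK1, and INK4 and CIP/KIP proteins inhibit the kinases. CDK7 activates other CDKs and, like CDK8, CDK9, CDK12 and CDK13, also acts on the transcription machinery. Loss of RB control is common in liver cancer.

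Values are FPKM (fragments scaled to gene length and to the mapped fragments of the library) as deposited, and tests used limma on log2(FPKM + 1) across the 11655 genes with at least 1 FPKM in at least 3 of the 6 libraries. A gene is said to have risen or fallen in siOXTR where its p, adjusted over all genes tested, was under 0.05. The library totals ran from 412464 to 429456 FPKM, Pearson correlations across genes ran from 0.997 to 0.998 within a group and from 0.922 to 0.923 between the groups, and no library stood apart from its group. OXTR fell from 26.5, 26.6 and 24.6 FPKM to 6.03, 6.11 and 6.14 FPKM. Of the hepatocyte markers, ALB, APOA1, APOB, AFP and TF were under 0.5 FPKM in every library, and SERPINA1 was at or under 1.1 FPKM. The defining secretory genes of hepatocytes were thus near absent, with the exception of FGB, at 42.3, 42.5 and 41.6 FPKM in siControl and 3.69, 3.21 and 3.74 FPKM in siOXTR. Of the epithelial markers, KRT8 (0.35) and KRT18 (0.49) rose, and EPCAM and CDH1 were at or under 0.47 FPKM. Of the mesenchymal markers, VIM rose from 1835 ± 43.6 to 3390 ± 29.6 FPKM (0.89), whereas CDH2 fell from 24.1 ± 0.893 to 7.28 ± 0.114 FPKM (-1.60) and FN1 from 15.2 ± 0.272 to 1.52 ± 0.0907 FPKM (-2.69). The part of these shifts in the results was not tested. The leukocyte gene PTPRC was between 0.27 and 1.01 FPKM and the endothelial genes PECAM1, CDH5 and VWF were at or under 0.28 FPKM.

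The D-type and E-type cyclins, E2F1, E2F2, E2F8, SKP2 and the inhibitor CDKN2C fell, while CDK4, CDK6, CDK7, CDK9 and CDC25B rose. Of the 85 genes, 75 were tested, of which 30 rose, 35 fell and 10 did not pass. Among all genes tested, 82.5% passed, 37.7% higher and 44.8% lower, so the share of these genes that moved (40% higher, 46.7% lower) was near that of the transcriptome. The median log2 change was -0.07, beside -0.06 for all genes tested. The groups did not overlap in 66 of the 75 (88%), where 83% of all genes tested did not overlap. Falls of at least 1 on the log2 scale were found in 9 of the 75 (12%), against 6.84% of all genes tested, and rises of that size in 0 of 75, against 4.71%. The 9 were CDKN2C, CCNE1, SKP2, CCND3, CCNE2, E2F8, CCNF, E2F1 and E2F2. In bulk RNA, fewer cells in a cycle phase and less RNA of a gene per cell cannot be told apart. The 85 genes made up 0.585 to 0.595% of the summed FPKM of a siControl library and 0.505 to 0.512% of a siOXTR library.

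**Figure D1:**
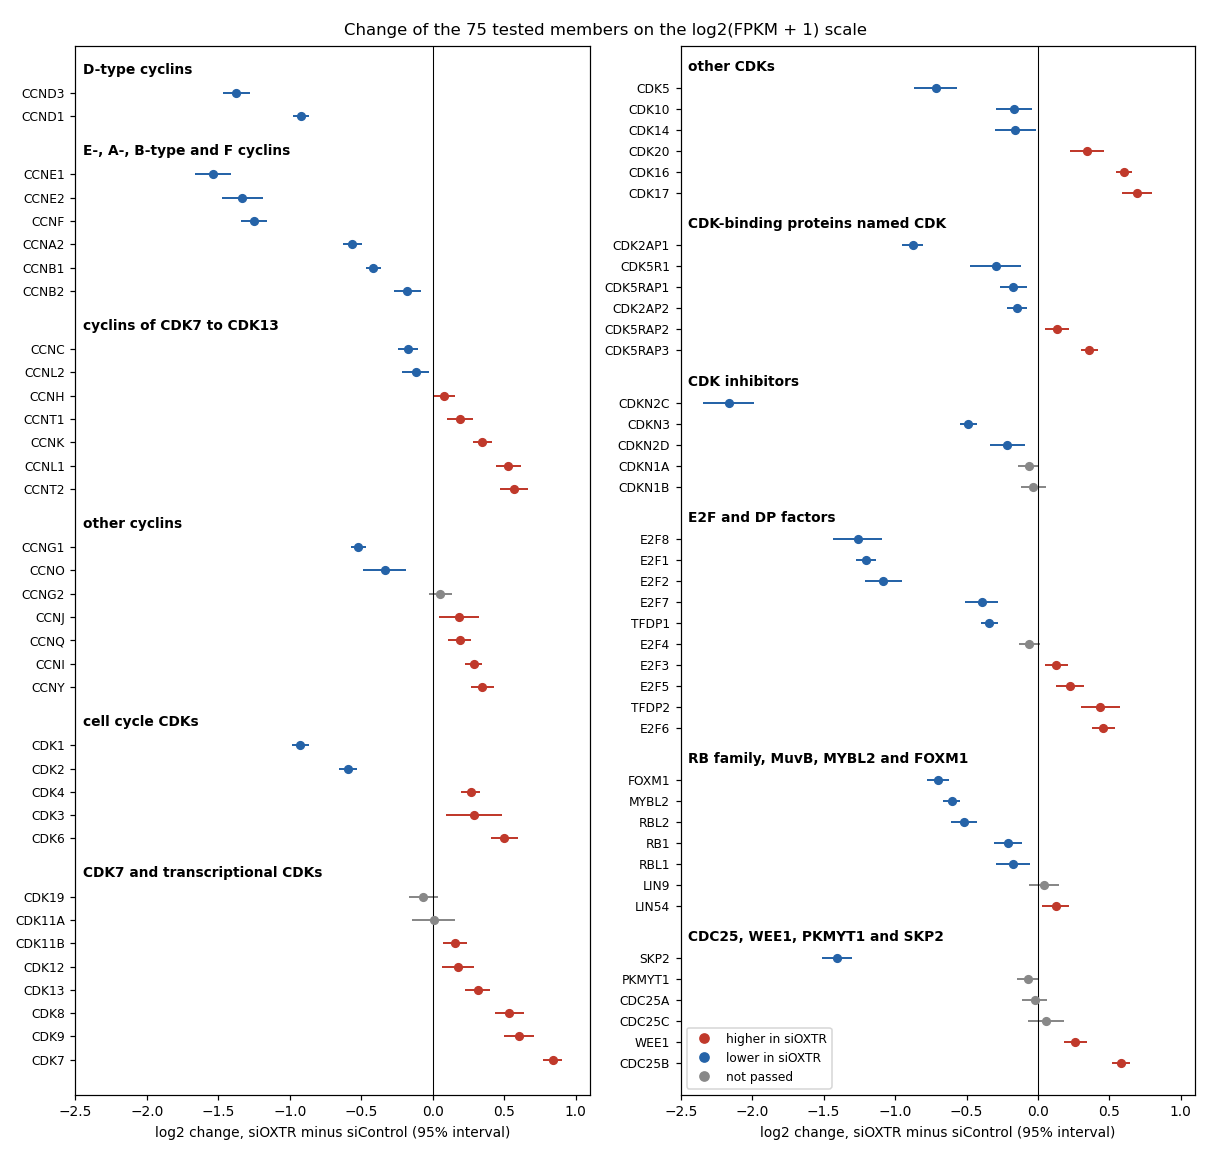
Log2 change (siOXTR minus siControl, x axis) of the 75 tested genes, grouped by role, with the limma estimate as a point and its 95% interval as a bar. Red points rose, blue points fell and grey points did not pass an adjusted p of 0.05. CDKN2C lies farthest to the left at -2.16 and CDK7 farthest to the right at 0.84.

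**Figure D2:**
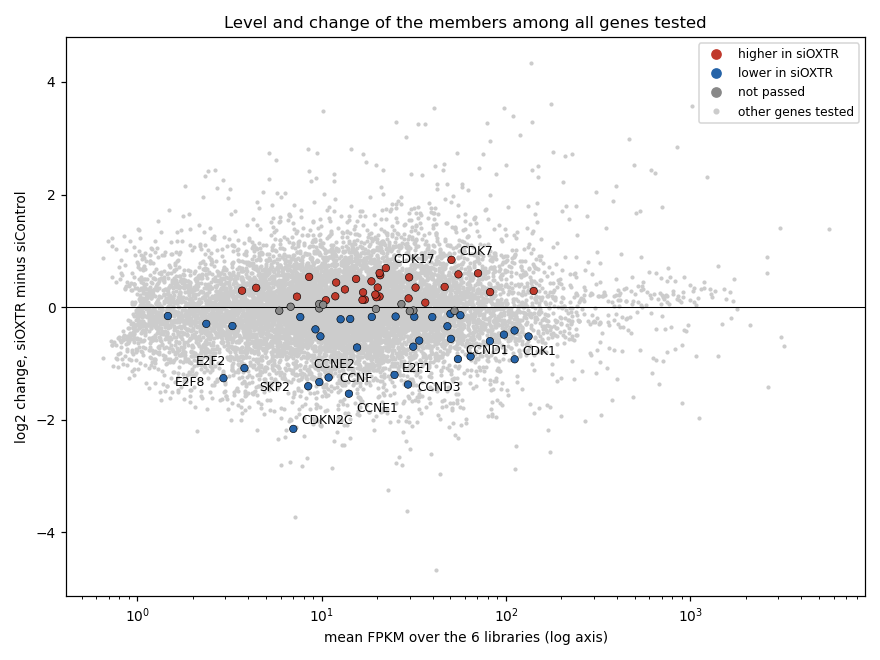
Mean FPKM over the 6 libraries (log axis) and log2 change for the same genes, coloured as to call, over all 11655 genes tested in grey. The genes that fell most, from CDKN2C to E2F2, were of low or middle level, and CDK1 and CCND1 fell by 0.93 and 0.92 at higher levels.

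The D-type cyclins, which couple growth signals to CDK4 and CDK6, fell. CCND1 was at 72.9, 71.1 and 72.7 FPKM in siControl and at 37.4, 37.8 and 37.7 FPKM in siOXTR (means 72.2 ± 0.991 and 37.6 ± 0.209, SD, n = 3), a log2 change of -0.92 (SE 0.03, adjusted p = 1.93e-10). CCND3 was at 45.1, 43.0 and 40.8 FPKM and at 15.4, 16.4 and 15.96 FPKM (log2 change -1.38, SE 0.04, adjusted p = 3.48e-10). Every siOXTR library lay below every siControl library for both genes. CCND2 was listed at 0, 0 and 0.01 FPKM in siControl and at 0, 0.01 and 0.02 FPKM in siOXTR and was not tested. The summed level of the D-type cyclins went from 115 ± 2.48 to 53.6 ± 0.701 FPKM, 2.15-fold lower. CCND1 made up 62.7% ± 1.19 of that sum in siControl and 70.3% ± 0.551 in siOXTR (SD, n = 3). The fall of CCND3 exceeded that of CCND1 by 0.45 on the log2 scale (SE 0.05), and the library ratios of the groups did not overlap.

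That comparison was 1 of 22 between related genes, each an exact two-sided permutation test of the log2 ratio over libraries. With 3 libraries against 3 such a test cannot give a p below 0.1, and after adjustment over the 22 pairs the smallest was 0.11, so none could pass. The library ratios of the groups did not overlap in 20 of the 22 pairs, all but CDKN1A to CDKN1B and RB1 to RBL1. Of all single genes tested, 83% did not overlap between the groups. The share among unrelated pairs was not computed, so the count does not set related genes apart.

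The E-type cyclins, the partners of CDK2 at the entry into S phase, both fell. CCNE1 was at 19.8, 21.9 and 22.6 FPKM in siControl and at 6.35, 6.77 and 7.02 FPKM in siOXTR, 3.19-fold lower (log2 change -1.54, SE 0.06, adjusted p = 1.3e-09). CCNE2 was at 14.7, 13.4 and 14.9 FPKM and at 4.58, 5.49 and 5.22 FPKM, 2.81-fold lower (log2 change -1.33, SE 0.06, adjusted p = 1.14e-08). Neither gene had overlapping groups, and CCNE1 stayed the more abundant in every library. The sum of both fell 3.03-fold, from 35.8 ± 1.56 to 11.8 ± 0.762 FPKM. Their changes differed by -0.21 (SE 0.09; exact permutation p = 0.1, the smallest possible).

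CCNF and the S-phase and mitotic cyclins fell as well. CCNF, which encodes the substrate receptor of a ubiquitin ligase and not a CDK partner, was at 15.6, 16.3 and 15.4 FPKM in siControl and at 5.96, 6.15 and 6.05 FPKM in siOXTR (log2 change -1.25, SE 0.04, adjusted p = 6.76e-10). CCNA2, the S-phase and G2 cyclin, was at 59.2, 61.2 and 60.1 FPKM and at 41.4, 40.6 and 39.2 FPKM (log2 change -0.56, SE 0.03, adjusted p = 2.62e-08). CCNB1, a mitotic cyclin, was at 129, 129 and 125 FPKM and at 95.1, 94.6 and 96.5 FPKM (log2 change -0.42, SE 0.02, adjusted p = 5.37e-08). In all of these genes the groups stood apart. CCNB2 was at 41.3, 40.5 and 45.4 FPKM and at 38.3, 36.6 and 37.1 FPKM, a change of -0.18 that lost its call under median-ratio scaling (-0.10, adjusted p = 0.074, where its alternatives ran from 0.00162 to 0.074). CCNA2 fell more than CCNB1 by 0.15 (SE 0.04) and CCNB1 more than CCNB2 by 0.24 (SE 0.07), each with an exact permutation p of 0.1. The germline cyclins CCNA1 and CCNB3 stayed at or under 0.59 FPKM in every library and were not tested.

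**Figure D3:**
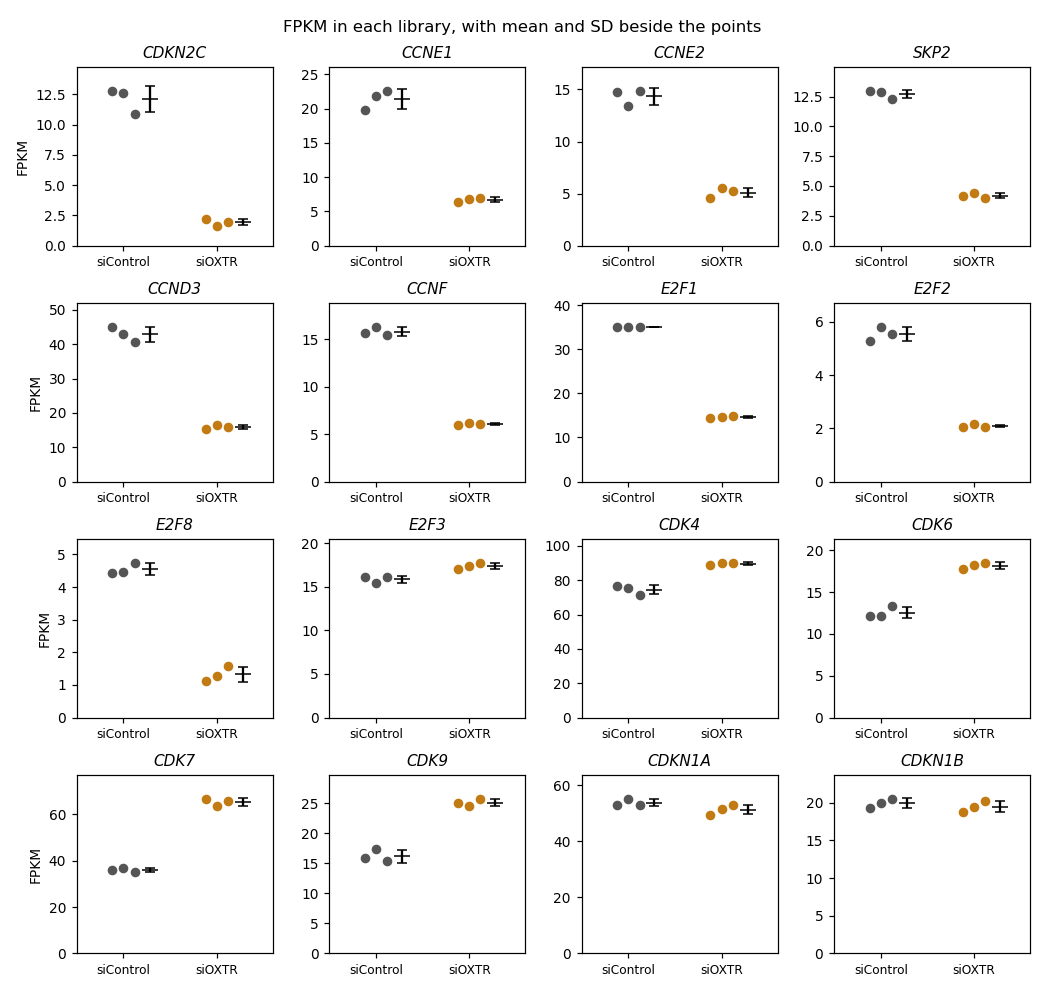
FPKM in each library (points, siControl in grey and siOXTR in orange) for 16 genes, with the group mean and SD (n = 3) drawn beside the points and each y axis starting at 0. The 9 genes from CDKN2C to E2F8 lie lower in siOXTR and E2F3, CDK4, CDK6, CDK7 and CDK9 higher, whereas CDKN1A, slightly lower in siOXTR, and CDKN1B, with overlapping groups, did not pass.

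The cell cycle CDKs went both ways. CDK1, the mitotic kinase, was at 144, 146 and 149 FPKM in siControl and at 76.5, 75.3 and 78.2 FPKM in siOXTR (log2 change -0.93, SE 0.03, adjusted p = 2.13e-10). CDK2 was at 41.4, 41.2 and 40.1 FPKM and at 26.7, 26.7 and 26.97 FPKM (log2 change -0.59, SE 0.03, adjusted p = 1.13e-08). Both kinase genes fell in every siOXTR library. CDK4 went the other way, from 76.5, 75.3 and 71.7 FPKM to 88.7, 90.3 and 90.3 FPKM (log2 change 0.27, SE 0.03, adjusted p = 9.13e-06). CDK6 rose from 12.2, 12.2 and 13.3 FPKM to 17.8, 18.3 and 18.6 FPKM (log2 change 0.50, SE 0.04, adjusted p = 1.16e-06). CDK4 and CDK6, which pair with D-type cyclins, rose 1.24-fold in sum, from 87.0 ± 1.87 to 108 ± 1.27 FPKM. CDK3 rose too (0.29), at a level of 3.21 ± 0.152 FPKM in siControl.

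Among the CDK inhibitors, one INK4 gene fell steeply and the CIP/KIP genes did not pass. CDKN2C, an INK4 inhibitor of CDK4 and CDK6, was at 12.8, 12.6 and 10.9 FPKM in siControl and at 2.16, 1.64 and 1.99 FPKM in siOXTR. It was 6.28-fold lower (means 12.1 ± 1.06 and 1.93 ± 0.265, SD, n = 3), with a log2 change of -2.16 (SE 0.08, adjusted p = 1.58e-09). No other tested gene of the set fell as far. CDKN2D, of the same family, was at 14.2, 12.6 and 14.3 FPKM and at 11.7, 12.1 and 11.1 FPKM (log2 change -0.22, SE 0.06, adjusted p = 0.00404). CDKN2A was listed at 0, 0 and 0.02 FPKM and at 0, 0.03 and 0.02 FPKM. CDKN2B had no value under that symbol and is missing from the INK4 sum. CDKN2C made up 46.9% ± 3.54 of the summed INK4 level in siControl and 14.2% ± 2.01 in siOXTR, and the sum fell 1.9-fold. The changes of CDKN2C and CDKN2D differed by -1.95 (SE 0.15; exact permutation p = 0.1).

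CDKN1A, a CIP/KIP inhibitor and p53 target, was at 53.03, 55.3 and 53.1 FPKM in siControl and at 49.5, 51.7 and 52.9 FPKM in siOXTR. The groups did not overlap, by a narrow margin. Its log2 change of -0.07 did not pass (95% interval -0.14 to 0.01, adjusted p = 0.0796), was 0.01 under median-ratio scaling, and passed without siOXTR library 3 (-0.09, adjusted p = 0.0463). CDKN1B, whose protein is degraded through SKP2, was at 19.3, 20.01 and 20.6 FPKM and at 18.8, 19.4 and 20.3 FPKM (log2 change -0.03, 95% interval -0.12 to 0.06, adjusted p = 0.469), and its sign turned under median-ratio scaling (0.05). The intervals exclude a change of the size seen in CDKN2C. CDKN1C was at 0.47, 0.13 and 0.18 FPKM and at 0.13, 0.18 and 0.13 FPKM and was not tested. CDKN3, which encodes a phosphatase acting on CDKs, fell from 114 ± 2.05 to 81.0 ± 1.57 FPKM (-0.49).

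SKP2, the substrate receptor of the ubiquitin ligase that removes CDKN1B protein, was at 13.0, 12.9 and 12.3 FPKM in siControl and at 4.14, 4.39 and 4.02 FPKM in siOXTR. It fell 3.04-fold (log2 change -1.41, SE 0.05, adjusted p = 8.37e-10), with no overlap between the groups.

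The activator E2Fs, which transcribe the genes of DNA synthesis, did not move together. E2F1 was at 35.1, 35.0 and 35.1 FPKM in siControl and at 14.4, 14.7 and 14.8 FPKM in siOXTR (log2 change -1.20, SE 0.03, adjusted p = 9.41e-11). E2F2 was at 5.27, 5.82 and 5.53 FPKM and at 2.06, 2.15 and 2.05 FPKM (log2 change -1.08, SE 0.06, adjusted p = 2.36e-08). E2F3 was at 16.1, 15.4 and 16.1 FPKM and at 17.1, 17.4 and 17.8 FPKM (log2 change 0.13, SE 0.04, adjusted p = 0.00711). E2F1 and E2F2 fell and E2F3 rose slightly, with no overlap of the groups in any of them. Of the summed FPKM of these genes, E2F3 made up 28.1% ± 0.597 in siControl and 51.0% ± 0.29 in siOXTR (SD, n = 3), and E2F1 went from 62.1% ± 0.194 to 42.9% ± 0.128. The sum was 1.65-fold lower in siOXTR. Which of E2F1 and E2F2 fell more depends on the pseudocount: the difference was -0.12 (SE 0.04) at 1 FPKM, 0.11 at 0.1 FPKM and 0.15 at 0.01 FPKM.

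E2F-type sequences lie in the promoter windows of all 3 activator genes, whose transcripts went both ways, so the windows are shown together. Each runs from 250 bases before to 50 bases after a transcript start in RefSeq (GRCh38.p14), 5′ to 3′ on the gene's strand: chr20:33686336-33686635 on the minus strand for E2F1, chr1:23531184-23531483 on the minus strand for E2F2 and chr6:20401629-20401928 on the plus strand for E2F3. Capitals mark matches to TTTCCCGC, TTTGGCGC, TTTCGCGC or TTTGCCGC on either strand.
E2F1: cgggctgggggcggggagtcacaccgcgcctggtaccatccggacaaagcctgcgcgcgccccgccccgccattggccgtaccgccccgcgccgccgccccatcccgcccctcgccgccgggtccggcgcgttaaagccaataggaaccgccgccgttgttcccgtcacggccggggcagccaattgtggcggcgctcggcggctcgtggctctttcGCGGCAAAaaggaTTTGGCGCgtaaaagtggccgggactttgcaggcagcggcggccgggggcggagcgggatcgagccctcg
E2F2: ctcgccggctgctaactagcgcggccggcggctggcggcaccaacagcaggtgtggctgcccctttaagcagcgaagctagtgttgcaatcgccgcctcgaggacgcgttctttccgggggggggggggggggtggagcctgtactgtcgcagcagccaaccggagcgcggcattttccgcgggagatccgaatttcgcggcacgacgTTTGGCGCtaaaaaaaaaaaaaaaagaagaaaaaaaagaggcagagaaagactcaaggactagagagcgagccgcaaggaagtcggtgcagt
E2F3: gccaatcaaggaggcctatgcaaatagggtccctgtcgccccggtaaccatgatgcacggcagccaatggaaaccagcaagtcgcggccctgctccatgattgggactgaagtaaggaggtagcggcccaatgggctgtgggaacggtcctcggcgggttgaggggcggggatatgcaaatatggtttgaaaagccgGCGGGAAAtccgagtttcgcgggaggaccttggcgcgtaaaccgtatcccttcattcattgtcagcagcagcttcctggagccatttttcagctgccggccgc
E2F1 holds 2 such matches, and E2F2 and E2F3 hold 1 each. A further E2F3 window, at a later start, holds none. Of the 85 genes, 75 had at least 1 window in the table, 114 windows in all. These are not the same 75 genes as those tested. CCND1, CCNE2, CDK2, E2F8 and FOXM1, which fell, had no window and are left out of the shares below. The same holds for E2F5 and WEE1, which rose, PKMYT1, which did not pass, and the untested CCND2 and CDKN1C. A match was found for 7 of 30 genes that fell (23.3%), 2 of 28 that rose (7.14%) and 2 of 9 that did not pass (22.2%). A match was held by 6.9% of all tested genes that had a window, as did 3.31% of the 35116 windows of the same length in the whole table. A match is a description of the letters in a window and does not show binding, and genes with more windows have more chances of one. FPKM is given per gene, so which start these cells use, and whether a window covers it, is unknown. Other motifs were searched on both strands too. CCAAT was held by 56.7% of the genes that fell, 35.7% of those that rose and 43.5% of all tested genes. TTTGAA or TTCGAA was held by 20%, 21.4% and 15.4%, and the E-box CACGTG by 10%, 21.4% and 12.8%.

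The E2Fs known mainly as repressors moved in both directions. E2F8 was at 4.44, 4.45 and 4.75 FPKM in siControl and at 1.12, 1.27 and 1.57 FPKM in siOXTR (log2 change -1.26, SE 0.08, adjusted p = 8.26e-08). E2F7, its closest relative, was at 10.3, 10.9 and 10.8 FPKM and at 7.30, 8.40 and 7.90 FPKM (log2 change -0.40, SE 0.05, adjusted p = 4.43e-05). Both atypical E2Fs fell, E2F8 by 0.87 (SE 0.08) more than E2F7 on the log2 scale, with an exact permutation p of 0.1. In mean FPKM, E2F8 was 3.44-fold lower. At its low level the log2 change depends on the pseudocount, and it ran from -1.79 to -1.13 over the alternatives. E2F4, which binds the RB relatives in resting cells, was at 31.6, 32.3 and 32.6 FPKM and at 31.8, 31.1 and 29.6 FPKM, a change of -0.06 (95% interval -0.14 to 0.02) that did not pass (adjusted p = 0.126) and was 0.02 under median-ratio scaling. E2F5 (0.22) and E2F6 (0.46) rose. Of the DP proteins that pair with E2Fs, TFDP1 fell from 54.3, 54.8 and 52.8 FPKM to 42.8, 42.8 and 41.7 FPKM (-0.34), and TFDP2 rose from 10.0 ± 0.254 to 14.0 ± 1.38 FPKM (0.44).

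**Figure D4:**
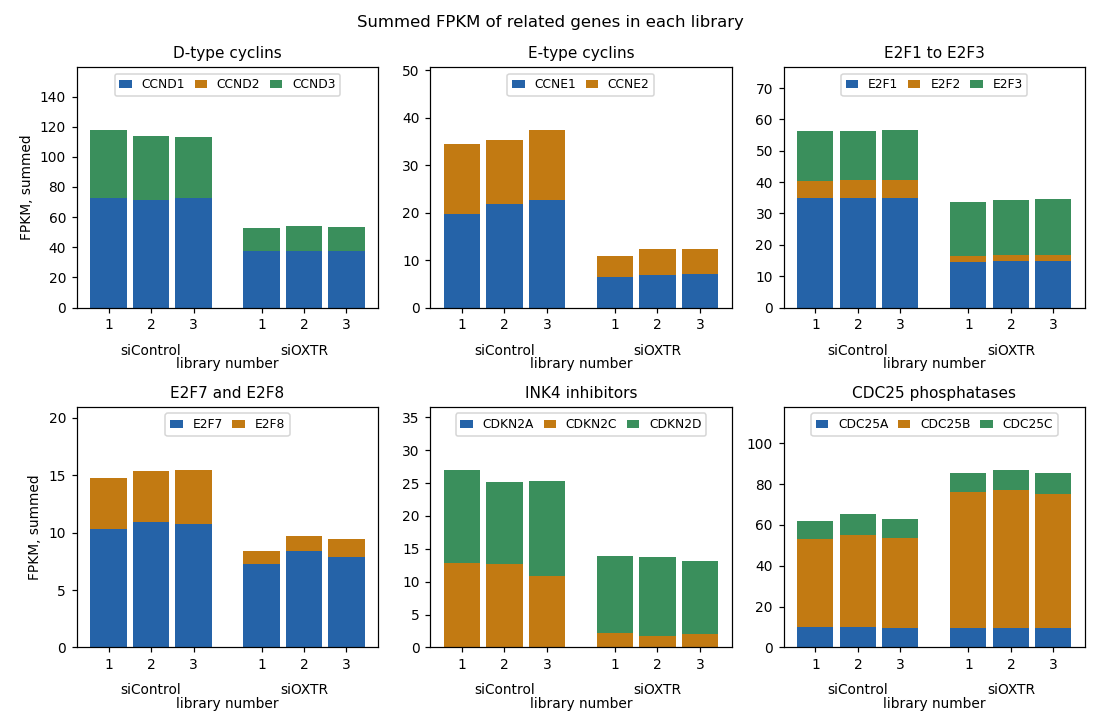
Summed FPKM of related genes in each library, stacked by gene, for the D-type cyclins, E-type cyclins, E2F1 to E2F3, E2F7 with E2F8, INK4 inhibitors and CDC25 phosphatases. Sums fell in siOXTR in each panel except the CDC25 phosphatases, and E2F3 (top right, green) kept about its height while E2F1 shrank.

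The set held 7 genes of the RB family and the factors of the DREAM and MuvB complexes, which repress or activate cell cycle genes by phase. Of these, 5 fell (71.4%, against 44.8% of all genes tested), LIN54 rose and LIN9 did not pass. RB1 was at 14.97, 15.9 and 15.4 FPKM in siControl and at 13.5, 12.5 and 13.6 FPKM in siOXTR (log2 change -0.21, adjusted p = 0.00106). RBL2 was at 11.8, 11.6 and 11.96 FPKM and at 7.99, 8.06 and 7.71 FPKM (log2 change -0.52, adjusted p = 5.61e-07). RBL1 was at 8.28, 8.25 and 8.02 FPKM and at 6.59, 7.46 and 7.36 FPKM (log2 change -0.18, adjusted p = 0.00988). RBL2 thus fell most of the family, and the call of RBL1 was lost under quantile (-0.10, adjusted p = 0.08) and median-ratio scaling (-0.10, adjusted p = 0.0873), within a range over its alternatives from 0.00833 to 0.0873.

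MYBL2 and FOXM1 encode the transcription factors that join MuvB to switch on mitotic genes. MYBL2 was at 98.6, 101 and 97.3 FPKM in siControl and at 64.4, 63.9 and 66.1 FPKM in siOXTR (log2 change -0.60, adjusted p = 6.38e-09). FOXM1 was at 38.9, 40.8 and 37.7 FPKM and at 23.4, 23.8 and 23.8 FPKM (log2 change -0.70, adjusted p = 1.39e-08). MYBL2 fell 1.53-fold and FOXM1 1.65-fold, with no overlap of the groups in either. Of the MuvB core, LIN9 was at 9.83, 9.72 and 10.6 FPKM and at 10.2, 10.2 and 10.7 FPKM (log2 change 0.04, adjusted p = 0.416), and it passed under quantile scaling (0.11, adjusted p = 0.0423). LIN54 was at 10.1, 9.85 and 10.2 FPKM and at 10.7, 11.1 and 11.4 FPKM (0.12).

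Of the regulators of CDK phosphorylation, CDC25B and WEE1 rose and the other 3 did not pass. Counted together with SKP2, which fell, 33.3% rose and 50% did not pass, against 37.7% and 17.5% of all genes tested. CDC25 phosphatases activate CDKs, and WEE1 and PKMYT1 inhibit them. CDC25B rose from 43.2, 45.1 and 43.9 FPKM to 66.2, 67.5 and 65.8 FPKM (log2 change 0.58, SE 0.03, adjusted p = 1.11e-08). CDC25A was at 9.92, 9.87 and 9.59 FPKM and at 9.73, 9.63 and 9.5 FPKM (log2 change -0.02, 95% interval -0.11 to 0.07, adjusted p = 0.597; 0.05 under quantile and under median-ratio scaling). CDC25C was at 8.79, 10.2 and 9.57 FPKM and at 9.49, 9.98 and 10.3 FPKM (log2 change 0.06, 95% interval -0.07 to 0.18, adjusted p = 0.364). Only CDC25B of the 3 passed, and its change exceeded that of CDC25A by 0.61 (SE 0.03; exact permutation p = 0.1). WEE1 rose from 15.2, 14.95 and 15.4 FPKM to 18.9, 18.0 and 18.4 FPKM (log2 change 0.26, adjusted p = 4.21e-05). PKMYT1 was at 31.9, 30.6 and 30.2 FPKM and at 28.7, 30.0 and 29.3 FPKM, which did not pass (log2 change -0.07, 95% interval -0.15 to 0.00, adjusted p = 0.0678; 0.01 under median-ratio scaling).

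CDK7 and most transcriptional CDKs rose. Of 8 such genes, 6 rose (75%, against 37.7% of all genes tested), 0 fell and 2 (CDK11A and CDK19) did not pass, with a median log2 change of 0.25. CDK7, the catalytic subunit of the CDK-activating kinase, was at 35.8, 37.0 and 35.3 FPKM in siControl and at 66.8, 63.4 and 65.6 FPKM in siOXTR. This 1.81-fold rise (log2 change 0.84, SE 0.03, adjusted p = 1.45e-09) exceeded that of every other tested gene of the set. CDK9, the kinase of the elongation factor P-TEFb, was at 15.8, 17.4 and 15.3 FPKM and at 25.0, 24.5 and 25.8 FPKM (log2 change 0.61, SE 0.05, adjusted p = 4.89e-07). CDK8, a kinase of the Mediator complex, rose by 0.54, CDK13 by 0.31, CDK12 by 0.18 and CDK11B by 0.16. CDK8 differed from its paralog CDK19 (-0.06, adjusted p = 0.211; 0.02 under quantile and 0.004 under median-ratio scaling) by 0.60 (SE 0.03). CDK11A and CDK11B are near-identical copies, and how reads they share were counted is not given, so their separate values are uncertain.

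The cyclin partners of these kinases were less uniform: 5 of the 7 rose and 2 fell, around a median of 0.19. These shares were 71.4% and 28.6%, against 37.7% and 44.8% of all genes tested. CCNT2 (0.57) and CCNT1 (0.19), partners of CDK9, and CCNK (0.35), partner of CDK12 and CDK13, rose. CCNL1, linked to splicing, rose by 0.53, and CCNC, partner of CDK8, fell by 0.17. CCNH, partner of CDK7, rose by 0.08 (adjusted p = 0.0494) where CDK7 rose by 0.84. CCNL2 fell by 0.12 (adjusted p = 0.0228), with overlapping groups.

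The remaining cyclins and CDKs went both ways. Of 7 other cyclins tested, 4 rose (57.1%, against 37.7% of all genes tested) and 2 fell (28.6%, against 44.8%). CCNG2 did not pass (0.05, adjusted p = 0.204), though it did under median-ratio scaling (0.13, adjusted p = 0.0167). CCNG1, a p53 target and the most abundant gene of the set in siControl, fell from 157 ± 2.45 to 109 ± 0.809 FPKM (-0.52). CCNI rose from 127 ± 2.71 to 156 ± 2.79 FPKM (0.29), and CCNY (0.35), CCNQ (0.19) and CCNJ (0.19) rose, while CCNO fell by 0.34. Of 6 other CDKs, 3 rose and 3 fell (50% each, against 37.7% and 44.8% of all genes tested). CDK17 (0.69) and CDK16 (0.60), close relatives, rose 1.65-fold and 1.53-fold, and CDK20 rose by 0.34. CDK5, best known for its work in neurons, fell from 19.6 ± 0.725 to 11.6 ± 1.33 FPKM (-0.72). Among the non-kinases named after a CDK, CDK2AP1, an inhibitor of CDK2, fell from 83.6 ± 2.97 to 45.1 ± 1.2 FPKM (-0.88). CDK5R1, the activator of CDK5, fell by 0.30, and CDK5RAP3 rose by 0.36. CDK5RAP2, a centrosome protein, rose by 0.13, and CDK2AP2 (-0.14) and CDK5RAP1 (-0.17) fell. The 10 untested genes, CDK15, CDK18, CDK5R2, CCNI2 and CCNP among them, were between 0 and 0.59 FPKM.

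Several of the smallest calls were lost when 1 library was left out. CCNH missed the threshold in 8 of 14 alternatives, with a log2 change of 0.09 without siControl library 1, 0.05 without siControl library 3, and 0.08, 0.06 and 0.09 without siOXTR libraries 1, 2 and 3. CCNJ missed it without siControl library 3 (0.12) and siOXTR library 1 (0.17). CCNL2 missed it without siControl library 3 (-0.09) and without siOXTR libraries 1 (-0.12) and 3 (-0.08), and CDK10 (-0.17 with all libraries) without the same ones (-0.14, -0.14 and -0.12). LIN54 missed it without siControl library 2 (0.11) and siOXTR library 3 (0.10). CDK14 (-0.16, adjusted p = 0.0406), at 1.6 ± 0.05 FPKM in siControl, missed it without any one of the siControl libraries 1 to 3 (-0.16, -0.14 and -0.17) or siOXTR libraries 1 to 3 (-0.16, -0.16 and -0.16). Scaling moved it further, to -0.02 with quantiles (adjusted p = 0.752) and -0.11 with median ratios (adjusted p = 0.154). Median-ratio scaling also ended the calls of CCNL2 (-0.04, adjusted p = 0.397) and CDK10 (-0.09, adjusted p = 0.147).

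Genes on either side of this machinery were counted from lists of textbook membership. The lists were written with earlier results of these data known, so their shares are descriptions and not independent support. Of 36 E2F targets, mostly genes of DNA replication and nucleotide supply with some of chromatin, DNA methylation and repair, 35 fell (97.2%, against 44.8% of all genes tested), 0 rose and CDT1 did not pass (-0.08, adjusted p = 0.0678), with a median log2 change of -0.77. The smallest adjusted p values included those of MCM6 (-1.71) and MCM3 (-1.91), subunits of the replicative helicase. Of 32 genes of G2 and mitosis, 30 fell (93.8%), 1 rose and 1, BIRC5 (-0.01, adjusted p = 0.837), did not pass, with a median of -0.56. Their smallest adjusted p values were those of TOP2A (-1.65), ANLN (-1.13) and KIF11 (-1.13). MKI67 (-1.33) and KIF20A (-1.24) fell more than ANLN and KIF11, and the centromeric histone gene CENPA (0.33) rose. Both medians lay below that of all genes tested (-0.06).

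Of 38 genes for the turnover of cyclins and CDK inhibitors, 18 fell, 9 rose and 11 did not pass (median -0.10). The share that fell, 47.4%, was near the 44.8% of all genes tested, and 23.7% rose against 37.7%. CDC20, an activator of the anaphase-promoting complex, fell by 0.58 and had the smallest adjusted p (7.04e-09). It was followed by the cullin gene CUL4A (0.78) and the F-box gene FBXO31 (0.85), which rose. The others that rose were FBXW7 (0.62), which marks cyclin E for degradation, FBXL12 (0.36), AMBRA1 (0.35), a substrate receptor for D-type cyclins, DDB1 (0.06), ANAPC13 (0.16), CDC16 (0.44) and CDC34 (0.34).

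A list of partners of DREAM, of the CDK-activating kinase and of transcriptional CDKs had 18 tested genes. It also took in CCNYL1, CCNDBP1, CABLES1, CABLES2 and CNPPD1, which are not such partners and of which all but CABLES2 rose. In the whole list 12 rose, 4 fell and 2 did not pass (median 0.37). Thus 66.7% rose and 22.2% fell, against 37.7% and 44.8% of all genes tested. CCNYL1, a relative of CCNY, rose by 1.02. HEXIM1, which holds CDK9 inactive, fell by 0.75, and CCNDBP1, which binds D-type cyclins, rose by 0.77. The others that fell were RBBP4 (-0.59), MYBL1 (-0.91) and CABLES2 (-0.52). Of 24 checkpoint and p53 pathway genes, 10 rose, 11 fell and 3 did not pass (median 0.01). These shares, 41.7% and 45.8%, were near the 37.7% and 44.8% of all genes tested. MYC, a growth-promoting transcription factor, rose by 1.598 and SFN, a G2 checkpoint protein, by 2.24, whereas CLSPN, which helps activate the checkpoint kinase CHEK1, fell by 1.34. The others that rose were RAD17 (0.61), MDM2 (0.49), MDM4 (0.64), TP53BP1 (0.32), MAPKAPK2 (0.19), GADD45A (0.59), PPP2R2A (0.88) and ENSA (0.14).

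**Figure D5:**
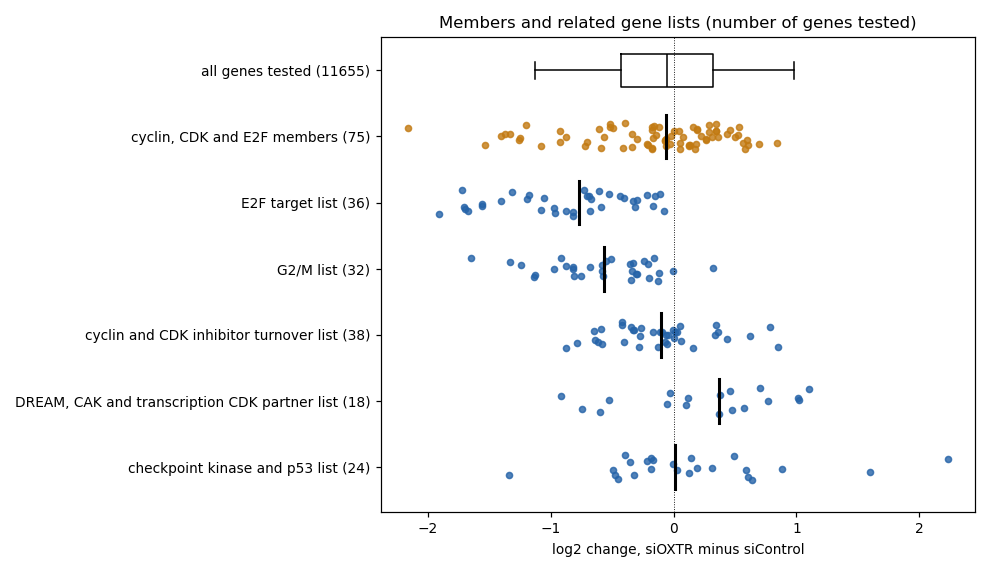
Log2 change (siOXTR minus siControl) of the 75 tested genes described here (orange) and of the genes in the 5 related lists (blue), each point a gene and each black bar a median, with the number tested in parentheses. The box at the top gives the quartiles and median of all 11655 genes tested, with whiskers at the 5th and 95th percentiles; the E2F target and G2/M medians, -0.77 and -0.56, lie to the left of the box.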

How the data were processed

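SNU449 cells were grown in RPMI-1640 with serum, and Trizol RNA went into libraries made with BGISEQ-500 protocols, per the labels' protocols. The authors deposited 1 FPKM value per gene and library, per the file headers, for 17153 genes, each with an NCBI identifier and a symbol. Not given in the sources used here are the aligner, counter, build, strand setting and filters, so reads of overlapping or near-identical genes cannot be assigned. FPKM holds no counts. Of 7865 low values, 18.8% lay within 0.1 of a whole multiple of their gene's smallest value in any library, where chance gives 20%. That check cannot decide whether whole reads lie behind the values, because libraries can differ in depth and the values are rounded. Depth is thus unknown and no count model was used. Precision is given by the spread between libraries.

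Values were taken as log2(FPKM + 1), and 11655 genes with at least 1 FPKM in at least 3 of 6 libraries were fitted with limma 3.58.1 (R 4.3.3), with group as the single factor and the prior variance following the mean level. All tests were two-sided, with Benjamini-Hochberg adjustment over all genes tested. Log2 changes understate those of low genes. Folds are ratios of mean FPKM. The fit was tested on simulated data, and its error rate on these libraries was not tested.

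The genes and lists were chosen with earlier results of these data known. Values in every library are given for genes of the set that passed with a log2 change of at least 1 in size and for a core of regulators, and each list names its 3 smallest adjusted p values and the genes that went against its majority, except for a result that is not reported here. Alternatives were pseudocounts of 0.1 and 0.01, either no filter or one at 5 FPKM, scaling by quantiles or by median ratios, a robust prior, a replicate block and leaving out each library.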

Additional observations from a re-analysis of the deposited data

How the results depend on the processing

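The counts of genes that rose and fell, among the 75 tested and in the 5 lists, stayed within 1.5 times their values under all 14 alternatives: 28 to 31 of the set rose and 28 to 35 fell. Of the 65 genes that passed, 54 kept their call under every alternative run and 11 lost it under at least 1; none of the 65 changed sign. Scaling moved the median of all genes tested from -0.06 to 0.001 (quantile) or 0.02 (median-ratio), less than 0.1 on the log2 scale. Median-ratio scaling turned CDC25A (0.05), CDK19 (0.004), CDKN1A (0.013), CDKN1B (0.045), E2F4 (0.019) and PKMYT1 (0.007), none of which had passed, and quantile scaling turned CDC25A (0.047) and CDK19 (0.022). Leaving out single libraries gave CDK11A changes between -0.052 and 0.058, with the sign turned without siControl library 1 or 2 or siOXTR library 1. The E2F1 to E2F2 difference turned at pseudocounts of 0.1 (0.11) and 0.01 (0.15), and the RB1 to RBL1 difference without siOXTR library 2 (0.031). The cause of these shifts was not tested. The calls of CCNL2 (-0.04), CDK10 (-0.09), CDK14 (-0.11), CDK2AP2 (-0.06) and CDK5RAP1 (-0.10) were also lost under median-ratio scaling and those of CDK14 (-0.02) and CDK5R1 (-0.14) under quantile scaling. Same-numbered libraries did not deviate together (correlations -0.0118, -0.0729 and 0.0388), so the numbers are not taken as pairs; with the replicate block, 30 genes of the set rose and 34 fell. Depth is unknown, so what it limits could not be assessed.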

Other observations

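Relatives whose symbols the rule did not take, chosen after their values were seen, included several that rose more than any tested gene of the set. CCNJL went from 10.4 ± 0.37 to 24.7 ± 0.0814 FPKM (SD, n = 3; log2 change 1.17, limma adjusted p = 4.5e-10), where its relative CCNJ rose by 0.19. CCNB1IP1, a ligase that binds cyclin B1, went from 19.3 ± 1.39 to 44.6 ± 0.353 FPKM (1.17). The CDK-like kinase gene CDKL1 went from 4.63 ± 0.0351 to 9.3 ± 0.864 FPKM (0.87), and CDKL3 rose by 0.31. CDKL2 and CDKL4 were at or under 0.09 FPKM. CDKN2AIPNL fell by 0.63, and CDKN2AIP did not pass (-0.05, adjusted p = 0.506).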
